A study of Mus musculus with 7 samples.

Results

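The clustered core histone genes encode the H2A, H2B, H3 and H4 proteins that form the nucleosome, the spool around which DNA is wound. They were chosen by gene symbol, H2ac, H2bc, H3c or H4c followed by a number, with the older names Hist1h, Hist2h, Hist3h and Hist4h used to find the genes that now carry another form of symbol. The rule named 61 protein-coding genes, of which 57 had a row among the 23725 gene IDs of the count files. The row was found through the current symbol for 54 of them and through the older name alone for 3, H2aw, H2bu2 and H4f16. The other 4 genes, H2ac7, H2ac18, H2ac24 and the H2B gene with the older name Hist1h2br, had no row and were not analysed here.

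Expression was measured in osteoblasts, the cells that build bone matrix, sorted from male KrasLSL-G12D/WT;p53Flox/Flox mice that carry a GFP reporter named Ocn-GFP, on the C57BL/6 background. In the 4 tumor-bearing mice lung tumors had been started with AdCre, an adenovirus that carries Cre recombinase, given through the trachea 14 weeks before the mice were killed. The 3 tumor-free mice had the same genotype and reporter. The labels repeat the treatment text on tumor induction for them and record no tumor, so whether they received virus is not known here. The mice were 31 weeks old, except for 2 of 23 weeks, which were tumor-bearing replicate 4 and tumor-free replicate 3. From each mouse 2000 GFP-positive cells negative for CD45, CD31 and Ter119 were sorted from digested bone pooled with lineage-depleted marrow, so the cells come from all bones of a mouse and from every site where the osteocalcin (Ocn) reporter is active. Each mouse gave 1 library of transcript 3′ ends, made with a custom CEL-Seq protocol, in which copying starts from an oligo(dT) primer that anneals to a run of A.

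Library totals ran from 77127 to 169774 counts, in tumor-bearing replicates 1 and 3. All 10 osteoblast marker genes had counts, with summed levels of 988 to 1605 CPM (counts scaled to a common library total) in tumor-bearing and 1306 to 2354 CPM in tumor-free libraries. Of their 1129 counts 305 were at Col1a1, 278 at Sparc, 173 at Runx2, 156 at Col1a2 and 147 at Ibsp. Bglap and Bglap2, the genes for osteocalcin, had only 8 and 5 counts in all, and Sp7 had 4. Of 7 neutrophil markers 5 were at 0 in every library, as were 6 of 8 B-lineage and 3 of 4 endothelial markers. The 2 neutrophil markers detected had 3 counts in all, 1 in each tumor-free library and 0 in the tumor-bearing libraries. Ptprc, which encodes CD45, had 3 counts in all, in tumor-bearing replicates 1 and 4. All 7 erythroid markers had a few counts, which summed to between 73.0 and 116 CPM in tumor-bearing and between 127 and 195 CPM in tumor-free libraries.

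Clustered histone genes are transcribed mainly while a cell copies its DNA, and their mRNAs end differently from other mRNAs. The transcript is cut just after a short stem-loop, to which the stem-loop binding protein SLBP attaches, and in most cases no poly(A) tail is added. Some of these genes also have a second, downstream end with a tail, a form known from differentiated cells. An oligo(dT) primer anneals to such a tail, or to a run of A inside a transcript, and finds no tail on the stem-loop form.

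The histone stem-loop was found on the transcript strand of 25 of the 57 genes. It was searched as the run of capitals shown here for H2ac23, with any base allowed where H2ac20 differs from it. The same motif was present in 34 of 21877 protein-coding genes (0.155%). A stem-loop with other bases would be missed by this search. Genes without a match, the H4 genes among them, may therefore still carry one. The transcripts came from GENCODE vM21, built on GRCm38, the assembly the files' mm10 build names. In 14 of the 57 genes the annotated transcript ended at or within 3 bases of the stop codon, so these models do not reach the place where a stem-loop would lie. Examples from the chromosome 13 and chromosome 3 clusters are shown with the 12 bases before the stem-loop, because the run of A that precedes it differs between genes; capitals mark the stem-loop.
H2ac23: aaaaaaaaaaaaGGCTCTTTTCAGAGCC
H2ac11: atcgccaacaaaGGCTCTTTTCAGAGCC
H2ac20: cgaatccaaaaaGGCTCTTTTTAGAGCC
H2bc8: tcctaacccaaaGGCTCTTTTCAGAGCC
In H2ac23 the stem-loop followed an unbroken run of 12 A, the longest in that transcript. The longest run in H2ac6 was 15 A, in a model of 2482 bases, whereas in H2ac11 and H2ac4 it was 4 A. A window with at least 11 A in 12 bases occurred in 6 of the 57 genes (10.5%), compared with 20.1% of the 21877 genes. The polyadenylation signal AATAAA lay in the last 50 bases of 11 of the 57 genes (19.3%), compared with 59.2% of the 21877 genes. In the 14 models that end near the stop codon neither feature could be seen beyond it. These shares were not matched for transcript length.

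Outside the H2A class and H3c4, 6 genes carried counts in most libraries. The last 30 bases of their annotated transcripts are shown, with AATAAA in capitals where it occurs.
H4f16: agaagatgctagaggagatgaAATAAAtac
H2bc21: ttattattAATAAAgttaccgattagtttc
H3c14: taatcccAATAAAaatttaacacactgcta
H2bc23: ttaAATAAAtttgtttcttctcctgcctcc
H4c9: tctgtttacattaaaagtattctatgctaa
H2bc6: tgtgttccttattaaagcattcctgattga
H4f16, H2bc21, H3c14 and H2bc23 held the signal in this window, and H4c9 and H2bc6 did not. The stem-loop as searched was also found in H3c14 and H2bc6, and forms of it with other bases were not searched for. No tail was measured here.

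Detection differed widely between genes. Of the 57 genes, 6 had counts in all 7 libraries, 36 in some and 15 in none, and 14 had a single count over all libraries. The 15 genes without a count (26.3%) compare with 10381 of all 23725 genes (43.8%). With 830673 counts over the 7 libraries, a count of 0 allows a level of up to 3.61 CPM (3 counts), and this limit covers counting error only. The genes without a count were 9 of 12 H3 genes, 3 of 13 H4 genes, 3 of 17 H2B genes and 0 of 15 H2A genes. Here a count is a count of 3′ ends and was not divided by transcript length.

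At least 1 count was found for 28 of the 57 genes in tumor-bearing replicate 1, 9 in replicate 2, 20 in replicate 3 and 19 in replicate 4. In the tumor-free libraries it was found for 25, 24 and 31 genes in replicates 1, 2 and 3. The lowest number was in tumor-bearing replicate 2, whose 98499 counts were not the fewest. At the depth of the shallowest library the expected numbers ran from 7.80 (tumor-bearing replicate 2) to 28 (replicate 1 of that group), and were 23.6, 19.8 and 26.4 in tumor-free replicates 1, 2 and 3. The groups overlapped at either depth.

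**Figure D1:**
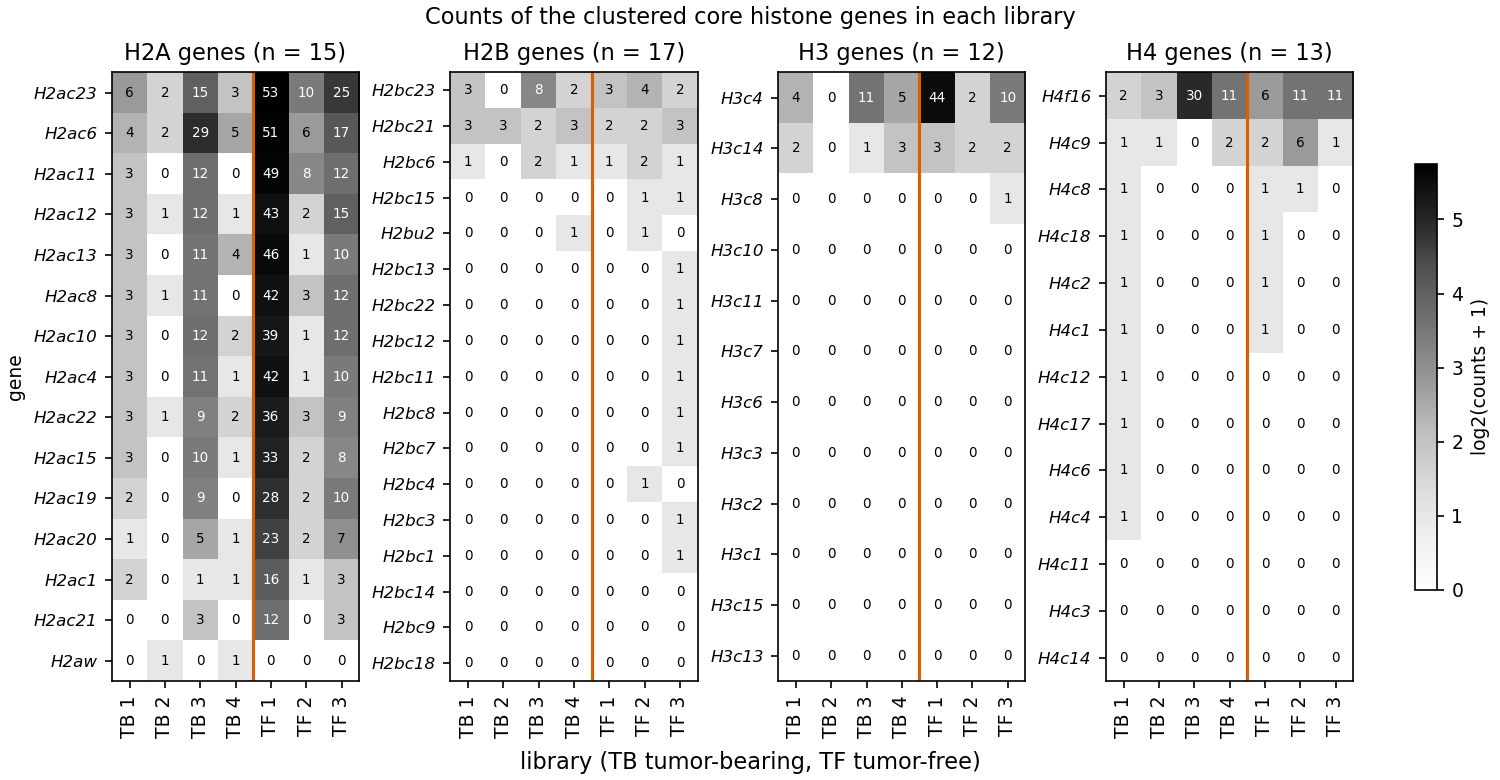
Raw counts of each of the 57 genes (rows, by histone class and falling total) in each of the 7 libraries (columns; TB tumor-bearing, TF tumor-free), with the count printed in each cell and shading by log2(counts + 1). The H2A rows share 1 profile with 12 to 53 counts in tumor-free replicate 1, apart from H2aw at 0 there, whereas most H2B, H3 and H4 rows hold 0 or 1.

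The H2A genes held 927 of the 1178 counts of the 57 genes (78.7%). The H3 genes held 90 counts, of which 76 were at H3c4, the H4 genes 100, of which 74 were at H4f16, and the H2B genes 61. By cluster, the 45 genes of chromosome 13 held 961 counts, the 9 genes of chromosome 3 held 139, the single gene of chromosome 6, H4f16, held 74, and both genes of chromosome 11, H2aw and H2bu2, held 4 together. The member with the most counts in each cluster was H2ac23 and H2ac6 on chromosome 13 (114 each), H2ac19 on chromosome 3 (51), H4f16 on chromosome 6, and H2aw and H2bu2 on chromosome 11 (2 each). Because the same read may have been counted at several genes, as the following values bear on, these sums are sums of rows and not of distinct transcripts.

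H2A protein pairs with H2B in the nucleosome, and the chromosome 13 genes for it are near-copies of each other. H2ac23 lies at chr13:21810367-21810918 and H2ac6 at chr13:23683473-23683959 (mm10). Over the first 330 coding bases the other 9 near-identical genes of chromosome 13 with a row were 97.6% to 99.4% identical to H2ac23. H2ac19, H2ac20 and H2ac21 of chromosome 3 were 91.5%, 91.8% and 87.3% identical to it, H2ac1 of chromosome 13 was 83.6% and H2aw of chromosome 11 was 87.6%. Coding bases 181 to 270 are shown because this stretch is common to most of these genes; capitals mark bases that differ from H2ac23. The letters of H2ac23 were found unchanged in 9 other H2A genes with a row, among them H2ac6 and H2ac19, and in H2ax, a variant histone gene of chromosome 9.
H2ac23: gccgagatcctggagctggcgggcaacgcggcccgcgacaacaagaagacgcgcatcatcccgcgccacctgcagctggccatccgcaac
H2ac15: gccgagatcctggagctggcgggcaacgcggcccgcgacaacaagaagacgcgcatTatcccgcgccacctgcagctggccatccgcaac
H2ac20: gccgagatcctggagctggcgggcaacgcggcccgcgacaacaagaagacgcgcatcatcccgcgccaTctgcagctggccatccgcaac
H2ac21: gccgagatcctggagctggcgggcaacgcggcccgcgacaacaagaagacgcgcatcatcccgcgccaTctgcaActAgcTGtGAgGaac
H2ac1: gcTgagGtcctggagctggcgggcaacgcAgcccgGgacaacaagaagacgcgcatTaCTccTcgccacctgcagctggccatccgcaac
H2aj: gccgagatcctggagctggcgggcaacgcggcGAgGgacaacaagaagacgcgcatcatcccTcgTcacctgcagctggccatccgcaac
H2aw: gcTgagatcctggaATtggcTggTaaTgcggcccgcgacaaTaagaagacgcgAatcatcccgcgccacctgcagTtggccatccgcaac
H2ac15 and H2ac20 differed from H2ac23 at 1 of these 90 bases, H2aj at 5, H2ac21 and H2ac1 at 8, and H2aw at 9.

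The near-identical H2A genes carried nearly the same counts in each library. H2ac13, H2ac15, H2ac22, H2ac12, H2ac11, H2ac10, H2ac8 and H2ac4 had 3 counts each in tumor-bearing replicate 1, and 0 to 1, 9 to 12 and 0 to 4 counts in replicates 2, 3 and 4. In tumor-free replicates 1, 2 and 3 they had 33 to 49, 1 to 8 and 8 to 15 counts. Their totals lay between 57 for H2ac15 and 84 for H2ac11.

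The 2 H2A genes with more counts were H2ac23 and H2ac6, and both contain a run of at least 12 A. H2ac23 had 6, 2, 15 and 3 counts in the tumor-bearing and 53, 10 and 25 in the tumor-free libraries, in the order of the replicates. H2ac6 had 4, 2, 29 and 5 counts in the tumor-bearing and 51, 6 and 17 in the tumor-free libraries. H2ac8, which also had a window with at least 11 A in 12 bases, had a longest run of 8 A and 72 counts. The annotated transcripts of H2ac13, H2ac15, H2ac22, H2ac12 and H2ac10 end at or within 3 bases of the stop codon. A run of A beyond it could not be seen in them. Whether the additional counts of H2ac23 and H2ac6 started at their runs of A was not tested.

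Clustered H2A genes less like H2ac23 had fewer counts than the near-identical genes, whereas the variant H2aj, 91.2% identical to H2ac23, had 99. H2ac19, H2ac20 and H2ac21 of chromosome 3 had 51, 39 and 18 counts in all, H2ac1 had 24 and H2aw had 2. H2ac20, for example, had 1, 0, 5 and 1 counts in the tumor-bearing and 23, 2 and 7 in the tumor-free libraries, and H2aw had 1 count in each of tumor-bearing replicates 2 and 4. The variant H2ax had 5, 0, 7 and 0 counts in tumor-bearing and 32, 3 and 8 in tumor-free libraries, again with the highest value in tumor-free replicate 1. Of the 15 H2A genes, 14 had their highest count in tumor-free replicate 1, and H2aw did not. How reads that match several genes were treated is not stated by the labels or notes used here, so the counts of single H2A genes are uncertain, and rows that share sequence are not independent measurements.

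**Figure D2:**
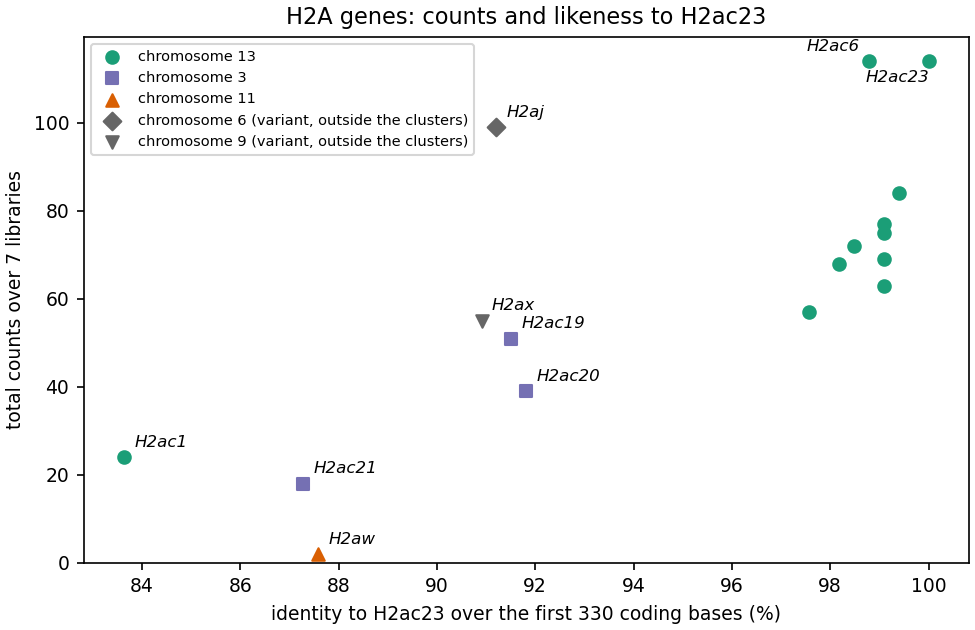
Total counts over the 7 libraries (vertical) against the percent identity to H2ac23 over the first 330 coding bases (horizontal), 1 point per H2A gene, with the marker showing the chromosome and the variants H2ax and H2aj in grey. The genes of chromosome 13 above 97% identity had 57 to 114 counts, the other clustered genes 2 to 51.

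H3c4, a gene for the histone H3 protein, carried the H2A profile although it shares no stretch of 30 bases with H2ac23. It had 4, 0, 11 and 5 counts in tumor-bearing and 44, 2 and 10 in tumor-free libraries. It lies at chr13:23575763-23576266, 847 bases beyond the end of H2ac7, an H2A gene that is 99.4% identical to H2ac23 and has no row. Why H3c4 carried this profile was not tested. Of the other 11 H3 genes, H3c14 had 13 counts, H3c8 had 1 and the rest had 0.

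Single counts also recurred across related genes. In tumor-free replicate 3, 10 of the 17 H2B genes had exactly 1 count, and 8 of these had none elsewhere. In tumor-bearing replicate 1, 9 of the 13 H4 genes had exactly 1 count, and 4 of these had none elsewhere. In the transcripts of H2bc8 and H2bc13, for example, 30-base stretches are shared with 17 other members. Whether such counts come from 1 read counted at several genes was not tested.

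Outside the H2A class and H3c4, 6 genes had at least 5 counts, with H2bc6 at 8 the last inside this limit and H4c8 at 3 the first outside it. They were H4f16, H2bc23, H2bc21, H3c14, H4c9 and H2bc6, genes for the H4, H2B and H3 proteins. Their annotated transcripts had a median length of 2166 bases, compared with 467 bases for the 20 genes with 1 to 4 counts and 630 bases for the 15 genes at 0. AATAAA lay in the last 50 bases of 4 of the 6, 3 of the 20 and 2 of the 15. Some models of the genes below 5 counts end at the stop codon, so no signal beyond it could be seen. This limit of 5 counts was chosen after the counts were seen, and no test was made.

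H4f16, on chromosome 6 at chr6:136803993-136804431 and with the protein product of an H4 gene, had the most counts of this kind. It had 2, 3, 30 and 11 counts in tumor-bearing and 6, 11 and 11 in tumor-free libraries. The highest value was in tumor-bearing replicate 3, and the lowest were in tumor-bearing replicates 1 and 2. Only 1 other member shared a 30-base stretch with it, covering 0.113% of its stretches, compared with 93.8% for H2ac23.

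H2bc21 had nearly the same raw count in each library, with 3, 3, 2 and 3 counts in tumor-bearing and 2, 2 and 3 in tumor-free libraries. Because library totals differ, its level ran from 11.2 CPM in tumor-bearing replicate 3 to 41.1 CPM in tumor-bearing replicate 1. H2bc23 had 3, 0, 8 and 2 counts in tumor-bearing and 3, 4 and 2 in tumor-free libraries. H3c14 had 0 to 3 counts in each library, H4c9 had 0 to 6 with the highest in tumor-free replicate 2, and H2bc6 had 0 to 2.

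The comparison of tumor-bearing with tumor-free mice was fitted across all 2495 genes that passed a filter on low counts, with age as a covariate. No gene passed an adjusted p of 0.05 by edgeR's quasi-likelihood test with Benjamini-Hochberg adjustment, either among the members or among all genes (0 genes, 0.0%), and 59 genes (2.36%) had an unadjusted p under 0.05. DESeq2 and limma voom, run on the same 2495 genes, also called 0, with 49 and 95 genes at an unadjusted p under 0.05. Of the 57 members 3 passed the filter, H2ac23, H2ac6 and H4f16, so the fit says nothing about the other 54. A gene passed with enough counts in as many libraries as the smaller group holds, so these 3 are not a neutral selection of the members. Of these 3, 1 had an unadjusted p under 0.05, and 2 had a fitted log2 fold change below 0, as did 1142 of the 2495 genes (45.8%).

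H2ac23 had levels of 82.3, 21.02, 84.3 and 20.5 CPM in tumor-bearing and 516, 84.9 and 201 CPM in tumor-free libraries. The lowest tumor-free library lay just above the highest tumor-bearing one, and tumor-free replicate 1 was highest. The mean was 52.0 ± 36.1 CPM (SD, n = 4) in tumor-bearing and 267 ± 223 CPM (SD, n = 3) in tumor-free mice. The fitted log2 fold change was -2.43 (SE 0.72), which did not pass the adjusted threshold (edgeR adjusted p = 0.997, unadjusted p = 0.0118). Groups that do not overlap in this direction occurred in 33 of 2495 genes tested (1.32%). Of the 57 members, H2ac11, which was not tested, also had groups that do not overlap. When CPM were computed on total counts without TMM scaling the groups of every member overlapped, and those of H2ac23 did so with 88.4 CPM in the highest tumor-bearing and 81.4 CPM in the lowest tumor-free library. Without tumor-free replicate 1 the log2 fold change was -1.44 (SE 0.78). With no filter on low counts edgeR called 38 of 13344 genes (0.285%), 32 of them lower. H2ac23 and 7 other H2A members were among these 32. With no filter and without tumor-free replicate 1 edgeR called 67 of 12916 genes (0.519%), 59 of them lower and none of them a member.

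H2ac6 had levels of 54.9, 21.02, 163 and 34.1 CPM in tumor-bearing and 496, 50.9 and 137 CPM in tumor-free libraries. The groups overlapped, since tumor-bearing replicate 3 was above tumor-free replicates 2 and 3. The means were 68.2 ± 64.6 CPM (SD, n = 4) and 228 ± 236 CPM (SD, n = 3). The log2 fold change was -1.68 (SE 0.85) with an edgeR adjusted p of 0.997. Without tumor-free replicate 1 it was -0.37 (SE 0.98).

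H4f16 did not differ beyond the spread between mice. Its levels were 27.4, 31.5, 169 and 75.0 CPM in tumor-bearing and 58.4, 93.4 and 88.6 CPM in tumor-free libraries, with means of 75.6 ± 65.6 CPM (SD, n = 4) and 80.1 ± 19 CPM (SD, n = 3). The log2 fold change was 0.08 (SE 0.64, edgeR adjusted p = 0.997). Its sign was the opposite in 2 of the other fits, at -0.02 with DESeq2 and -0.06 with limma voom, and it was -0.13 without tumor-free replicate 1.

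**Figure D3:**
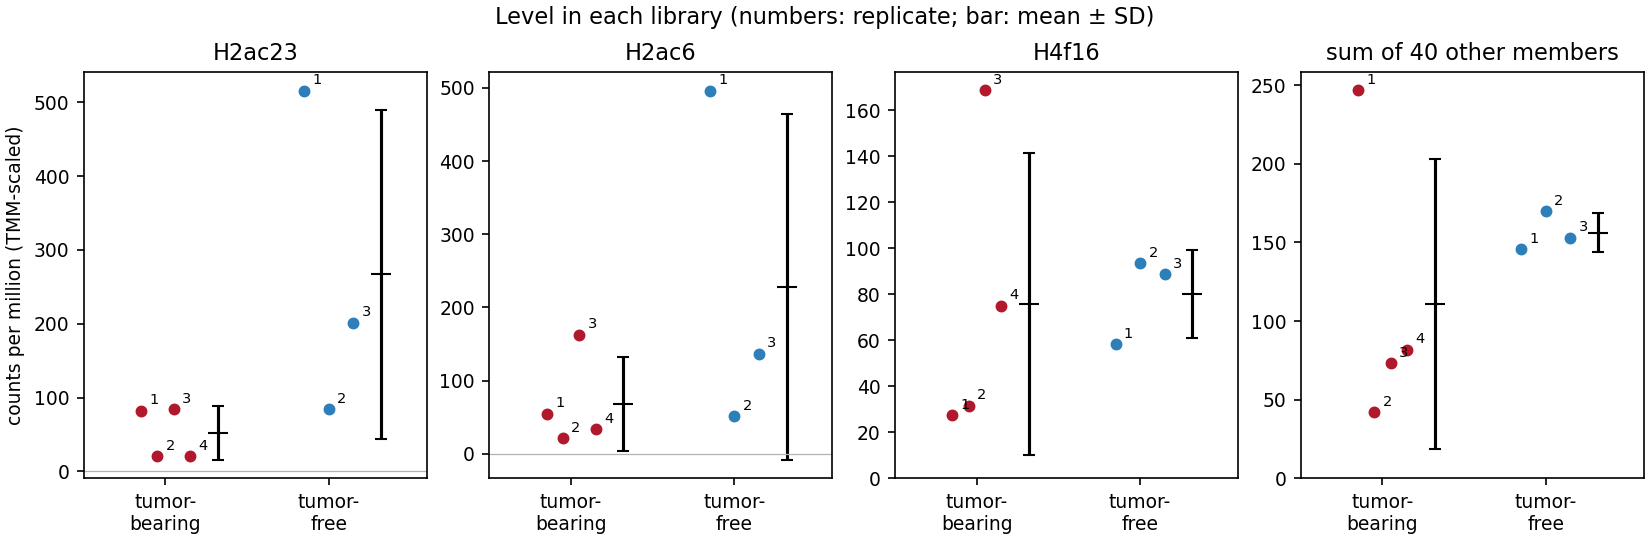
Levels in CPM on TMM-scaled library sizes for H2ac23, H2ac6, H4f16 and the sum of the 40 members other than the H2A genes, H3c4 and H4f16, 1 point per library labelled with its replicate number; the bar is the group mean ± SD (n = 4 and n = 3). Tumor-free replicate 1 stands highest for H2ac23 (516 CPM) and H2ac6 (496 CPM) but not for H4f16 or for the sum, where it lies at 58.4 and 146 CPM.

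Tumor-free replicate 1 held 49.1% of all member counts and 55.3% of the H2A counts. Summed over the 57 genes, the level was 864, 158, 1146 and 341 CPM in tumor-bearing and 5623, 637 and 1555 CPM in tumor-free libraries. The groups overlapped, and the tumor-free SD was as large as its mean (2605 ± 2653 CPM, n = 3, compared with 627 ± 457 CPM, n = 4). The log2 ratio of the group means was -2.05, and -0.81 without tumor-free replicate 1. Without the H2A genes and H3c4 the sum was 274, 73.6, 242 and 157 CPM in tumor-bearing and 204, 263 and 242 CPM in tumor-free libraries, with a log2 ratio of -0.34. In bulk samples fewer cells making a transcript and less of it per cell cannot be told apart.

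**Figure D4:**
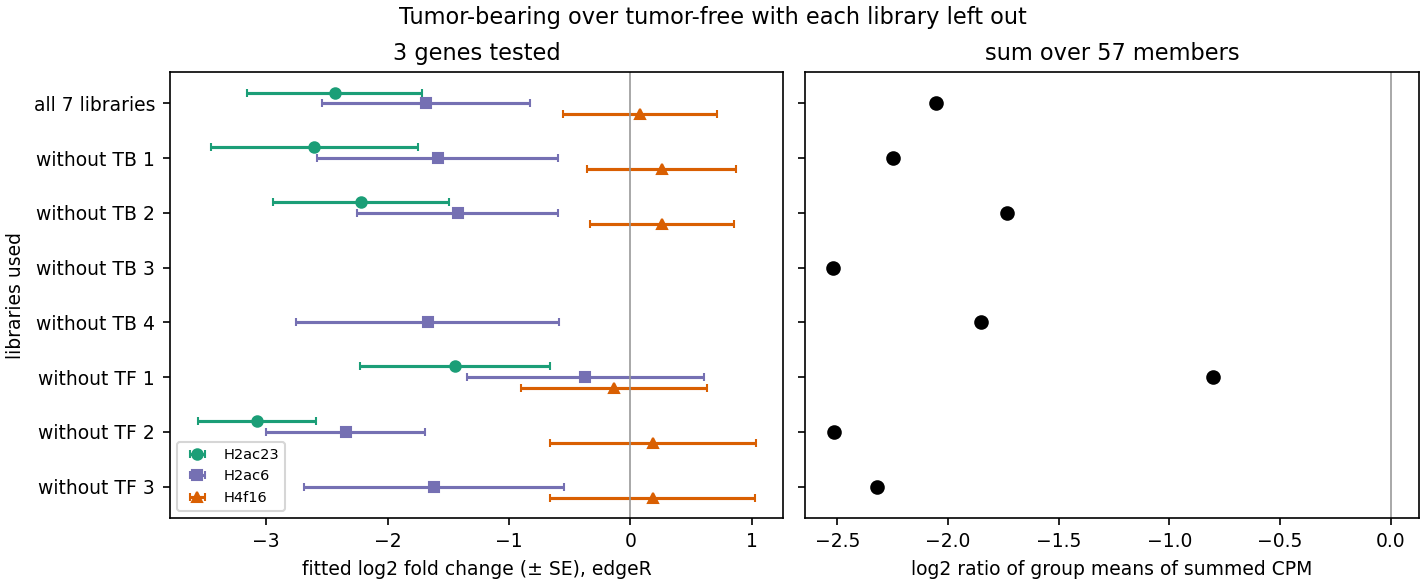
Tumor-bearing over tumor-free difference with all 7 libraries and with each library left out (rows). Left, the fitted log2 fold change ± SE of the 3 genes tested, with no point where a gene did not pass the low count filter; right, the log2 ratio of group means of the summed CPM of the 57 genes, which moves from -2.05 to -0.81 when tumor-free replicate 1 is left out.

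By class, the group means of summed H2A levels were 403 ± 354 CPM (n = 4) in tumor-bearing and 2193 ± 2462 CPM (n = 3) in tumor-free mice, and 14 of 15 H2A genes had a lower mean in the tumor-bearing group. The H2A rows share sequence, so this count is not 14 separate observations. The H2B genes summed to 60.7 ± 27.8 and 90.9 ± 31.3 CPM, and the H4 genes to 113 ± 58.1 and 122 ± 28.4 CPM. The H3 genes other than H3c4 summed to 13.4 ± 12.7 and 23.4 ± 6.14 CPM. The groups overlapped for each of these classes.

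Among all 2495 genes tested, 385 (15.4%) had their highest CPM in tumor-free replicate 1, and 39 (1.56%) were more than 2 times higher there than in any other library, among them H2ac23 and H2ac6. The summed level of the osteoblast markers was also highest in that library, at 2354 CPM, and so was that of the erythroid markers, at 195 CPM, whose groups do not overlap. Their part in the H2A values was not tested.

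The summed level of genes for DNA replication and cell division was not high in tumor-free replicate 1. The 40 S phase and proliferation genes summed to 2820 to 2845 CPM in tumor-bearing libraries and to 2733, 3268 and 3054 CPM in tumor-free replicates 1, 2 and 3, so that tumor-free replicate 1 was lowest. Of the 40, 7 were tested and 0 passed the adjusted threshold, 4 with a log2 fold change below 0 and a median of -0.23, beside 0.04 over all genes tested. Of the 7 tested, Mcm5 and E2f1 were highest in tumor-free replicate 1, at 282 and 185 CPM, and the others were highest elsewhere. Cenpf, a kinetochore protein gene of dividing cells, had a log2 fold change of 0.39 (SE 0.24). Tyms, thymidylate synthase, and Ube2c, a ubiquitin-conjugating enzyme of mitosis, had 0.13 (SE 0.38) and 0.02 (SE 0.25). Counts over all libraries were 140 for Mcm5, 123 for Birc5 and 97 for E2f1, which were tested, and 37 for Mki67 and 1 for Pcna.

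Of 21 genes for histone mRNA processing, 16 had counts and 1 was tested. Slbp, the gene of the stem-loop binding protein, had 1, 3, 1 and 1 counts in tumor-bearing and 0 in each of the tumor-free libraries. These counts are too low to compare the groups. Slbp was not tested and was named after its values were seen. Lsm11, part of the U7 particle that cuts histone transcripts, had 505 to 700 CPM in tumor-bearing and 593 to 620 CPM in tumor-free libraries, with a log2 fold change of -0.11 (SE 0.21, edgeR adjusted p = 0.997). Eri1, an exonuclease that trims histone mRNA, had 28 counts in all, and Upf1, an RNA helicase needed for histone mRNA decay, had 22.

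Of 22 histone chaperone genes, which hand histones to DNA or carry them in the cell, 6 were tested and 0 passed the threshold, 3 in each direction, with a median log2 fold change of 0.06. Rbbp4, a histone-binding subunit of chromatin assembly factors, had a log2 fold change of 0.98 (SE 0.67, edgeR adjusted p = 0.997) and levels from 189 to 1248 CPM in tumor-bearing and 146 to 390 CPM in tumor-free libraries. It was 0.40 without tumor-bearing replicate 1, 0.56 without tumor-free replicate 1 and 0.50 with limma voom. Supt16, a subunit of the FACT complex that moves nucleosomes, had -0.01 (SE 0.24). Ncl, nucleolin, had -0.06 (SE 0.25), and Set, a histone-binding protein, had 0.28 (SE 0.32).

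Variant histone genes encode forms of the core histones that differ from those of the clusters. Of 11 such genes 9 had counts and 1, H2aj, was tested. H2aj and H2ax had 99 and 55 counts in all. H2aj had 2, 11, 45 and 13 counts in tumor-bearing and 18, 2 and 8 in tumor-free libraries, an order unlike that of the H2A rows, and a log2 fold change of 0.59 (SE 0.82, edgeR adjusted p = 0.997). Its direction turned with 1 library left out, to -0.092 without tumor-bearing replicate 3 and -0.042 without tumor-free replicate 2, and it was 1.64 without tumor-free replicate 1. H3f3a and H3f3b, which encode the H3.3 variant, had 15 and 3 counts in all, and H2az1, an H2A.Z gene, was at 0 in every library.

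Linker histones bind the DNA between nucleosomes, and several of their genes, H1f1 and H1f3 among them, lie within the chromosome 13 histone cluster. Counts were found at 7 of 10 linker histone genes, and none was tested. H1f3 had 1, 2, 5 and 4 counts in tumor-bearing and 3, 6 and 5 in tumor-free libraries, and H1f0 and H1f1 had 5 and 4 in all. Summed over the 10 genes, the level was 13.7 to 42.0 CPM in tumor-bearing and 48.6 to 80.6 CPM in tumor-free libraries, so the groups did not overlap, with a log2 ratio of group means of -1.07. This sum rests on 1 to 10 counts per library and was not tested. Of its 41 counts 26 were at H1f3. The erythroid and neutrophil sums also did not overlap, in the same direction, and the sums of the other lists overlapped.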

How the data were processed

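Counts were obtained from 7 libraries of sorted osteoblasts, 1 per mouse. Whole-number counts were deposited for each Entrez gene ID, without normalization. Per the submitters' processing notes, TopHat2 2.0.10, SAMtools and build mm10 were used. Strand setting, annotation, counting program, the treatment of reads matching several genes and any collapsing of molecular identifiers are not stated in those notes or the labels, so limits cover counting error only.

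A RefSeq table of GRCm38.p6 gave symbols to 23666 of 23725 IDs. The members and gene lists were chosen with earlier results of these data known. One gene without a known role in histone mRNA processing was dropped from that list after its values were seen. Low counts were removed by filterByExpr (edgeR 4.0.16; minimum total 15, minimum count 10). The 2495 genes left were scaled by TMM and tested with glmQLFit (robust) and glmQLFTest with age as a covariate in R 4.3.3, with Benjamini-Hochberg adjustment at 0.05; the procedure was tested on simulated counts. Sums and sequence features were described without a test. No libraries repeated each other (3.58 to 6.89 chi-square units per degree of freedom). Named were members past the filter, up to 15 with the most counts, the leading member per cluster, and from each list up to 3 genes with the most counts and up to 2 with the smallest p. A gene that this rule takes is not reported here. Genes named besides these, such as Slbp, H3f3b, Mki67, Pcna, Mcm5, E2f1 and Birc5, were chosen after their values were seen. Each gene's longest transcript in GENCODE vM21 gave its sequence. CPM are on TMM-scaled library sizes and fold changes set tumor-bearing against tumor-free. Alternatives used DESeq2 1.42.0, limma 3.58.1, other filters, scalings and covariates, and left out each library.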

Additional observations from a re-analysis of the deposited data

Results flagged for a closer look

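Of 28 values examined in the 4 tumor-bearing libraries, 2 had 1 library farther from the others than the 95% limit of Dixon's gap test for a group of this size, a limit that chance passes in about 1 of 20 groups. Tumor-bearing replicate 4 had 6.82 CPM over the B-lineage markers and tumor-bearing replicate 3 had 5.62 CPM over the endothelial markers, with 0 in the other tumor-bearing libraries; each value is a single count. The 3 members tested and the summed member levels were not among them, and the tumor-free group of 3 is too small for this rule.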

How the results depend on the processing

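The number of members called was 0 in each fit with a low count filter and 8 without one. Without the filter 38 of 13344 genes (0.285%) were called, 32 of them lower. The 8 members were H2ac8, H2ac11, H2ac12, H2ac15, H2ac19, H2ac20, H2ac22 and H2ac23, all lower, with edgeR adjusted p from 0.000126 to 0.0338. The call among the other lists moved from 0 to 1, H2ax (log2 fold change -2.55, edgeR adjusted p = 0.0175). These 9 rows share sequence.  When tumor-free replicate 1 was left out as well, an alternative chosen after seeing the data, 67 of 12916 genes (0.519%) were called, 0 of them members or genes of these lists. The cause was not tested. The stricter filter and leaving out tumor-bearing replicate 3 left no member tested. H2ac23 kept a log2 fold change below 0 in the 12 alternatives that tested it and H2ac6 in the 16 that did. With 1 library left out, called members stayed at 0 and H2ac23 ran from -3.08 to -1.44, H2ac6 from -2.34 to -0.37, H4f16 from -0.13 to 0.26, H2aj from -0.092 to 1.64, Ncl from -0.23 to 0.12, Supt16 from -0.22 to 0.20, Tyms from -0.17 to 0.29, Rbbp4 from 0.40 to 1.29 and Ube2c from -0.15 to 0.14. Signs turned for H4f16 with DESeq2 (-0.016), limma voom (-0.058) and, with no filter and no tumor-free replicate 1, to -0.24; Ube2c turned with DESeq2 (-0.00073), voom (-0.088), the stricter filter (-0.014) and that last fit (-0.24), Tyms there (-0.14), Supt16 with no filter (0.0031) and Ncl in 31-week mice (0.10).

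With the replicate number as a block in place of age, without tumor-bearing replicate 4, 0 members were called; Ncl was 0.049, Supt16 0.068 and Tyms -0.16, of opposite sign to the main fit, and the summed level, as the mean of same-numbered differences, was -1.72. Same-numbered libraries did not deviate together (correlations -0.20, -0.12 and -0.12). Deviations from the means of such small groups cannot show whether same-numbered mice were handled together, so pairing is not known here.

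The summed log2 ratio ran from -2.52 to -0.81 with 1 library left out and, in alternatives chosen after seeing the data, was -0.34 without the H2A genes and H3c4 and -2.21 with members found by current symbol alone. The mean number of members with counts, 22.3 per library, was 15 at 2 counts and 7.71 at 5 counts. At this depth 3 of 57 members could be tested.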
